A study of Mus musculus with 12 samples.

Results

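Slc12a2 and Slc12a5 encode the cation-chloride cotransporters NKCC1 and KCC2, and they were followed here as 2 of the 55335 genes in the count matrices. Both were picked by symbol and not by a threshold on their values. Earlier results of these data were known when they were chosen. NKCC1 carries chloride into cells together with sodium and potassium, while KCC2 uses the potassium gradient to extrude it, so the balance of both sets the direction of chloride flow through GABA-A and glycine receptors. In the rodent forebrain KCC2 is known to rise and NKCC1 to give way as neurons mature, which is part of the switch of GABA from a depolarizing to a hyperpolarizing transmitter. NKCC1 is also known from cells that are not neurons, among them glia and the choroid plexus. In mm10 with the GENCODE M21 annotation, Slc12a2 (ENSMUSG00000024597.11) lies on the plus strand of chromosome 18 from 57878678 to 57946821. Slc12a5 (ENSMUSG00000017740.17) lies on the plus strand of chromosome 2 from 164960802 to 164999731. No other annotated gene overlaps either span.

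Nuclei came from the cortices of 12 mice at postnatal day 21, 6 wild type (WT) and 6 heterozygous for Myt1l (Het), with 3 males and 3 females in each genotype. The mutant line carries the germline frameshift allele MYT1L S710fsX on a C57BL/6 background, so the allele was present in every cell type and no Cre or transgene restricted it. MYT1L is a zinc finger transcription factor of postmitotic neurons. The study's methods describe an injection of AAV9 calling card reagents (hyPB and H2b-tdT-SRT) into the ventricles of newborn pups of this cohort, so the WT animals share that treatment. Replicates are separate animals, drawn from 4 litters and processed in parallel.

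Nuclei were barcoded with the Scale Biosciences kit. After limits on depth and removal of doublets, 33116 of 78743 barcodes were kept, 0 of them shared between animals. The lower limits were passed by 78722 barcodes, while 33586 lay above the upper limit on UMIs. The loss was therefore largely of barcodes rich in UMIs. Unless stated otherwise, the levels and tests describe nuclei within the upper limits. The deposited matrices held 23425407 to 59947430 unique molecular identifiers (UMIs) per animal. Clusters were named from marker genes and carry the ending "-like", and 24671 nuclei fell into 27 named types. Excitatory neurons were 21058 nuclei, inhibitory neurons 8178 and non-neuronal cells 2792. Although the labels give the region as cortex, nuclei with striatal, dentate gyrus and olfactory neuroblast markers were present. All 6 fixed markers of the dentate gyrus, L6 CT and L6b types were highest in their own type among types of the same broad class, against 2 of 6 for L2/3 IT and 1 of 6 for L6 IT, so these last names rest on fewer separating genes. Cells of one animal were summed before any comparison. Levels are CPM, the UMIs of a gene scaled to the same library total for every animal and class, with no correction for gene length. Myt1l itself lay at 830 to 949 CPM in the WT animals and 927 to 1009 CPM in the Het animals over all nuclei, so the gene count was not lower in Het. Gene counts do not show the frameshift and therefore give no check of the genotype labels.

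The Slc12a5 gene has 2 start sites in RefSeq (GRCm38.p6), known to give the KCC2a and KCC2b isoforms, which the gene counts do not separate. The windows from 250 bases before to 50 after each start are shown because the transcription factors USF1 and USF2, known regulators of the downstream start through an E-box, were themselves measured in these nuclei. Capitals mark each match to the E-box CACGTG on either strand.
Slc12a5 upstream start, chr2:164960596-164960895, plus strand: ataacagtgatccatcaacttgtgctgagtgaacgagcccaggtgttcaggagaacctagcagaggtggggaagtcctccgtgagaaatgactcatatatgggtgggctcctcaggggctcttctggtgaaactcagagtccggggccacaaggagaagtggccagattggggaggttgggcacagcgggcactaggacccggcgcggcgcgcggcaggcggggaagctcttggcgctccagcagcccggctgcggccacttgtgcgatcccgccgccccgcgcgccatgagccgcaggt
Slc12a5 downstream start, chr2:164967738-164968037, plus strand: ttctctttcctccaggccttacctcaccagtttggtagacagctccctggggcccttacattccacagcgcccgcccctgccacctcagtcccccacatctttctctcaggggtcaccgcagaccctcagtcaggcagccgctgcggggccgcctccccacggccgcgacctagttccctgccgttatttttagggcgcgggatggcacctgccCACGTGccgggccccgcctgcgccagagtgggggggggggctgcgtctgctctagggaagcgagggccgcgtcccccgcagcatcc
The downstream window held 1 CACGTG, starting at base 215 of the 300, and the upstream window held 0. Over all 32544 distinct RefSeq promoter windows of this length, 7.17% held the same letters. The EGR-type motif GCGNGGGCG, present in 5.60% of all windows, and the letters CAGCACC, the first part of the site bound by the repressor REST and present in 7.16%, were found in neither Slc12a5 window. A match of letters is a description of the sequence and not evidence of binding.

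Slc12a5 was a neuronal transcript throughout these nuclei. Excitatory neurons held 134 ± 11.5 CPM (SD, n = 12 animals) and inhibitory neurons 126 ± 11.0 CPM (SD, n = 12). Of all Slc12a5 UMIs in an animal, 92.4% to 98.0% came from excitatory and inhibitory neurons. Among neuronal types the highest mean level was in L2/3 IT neurons, the intratelencephalic cells of the upper cortical layers, at 169 ± 20.9 CPM (SD, n = 12), although STR D2 neurons led in WT animals alone and without doublet removal. STR D2 neurons, the striatal projection neurons with the dopamine D2 receptor, were at 165 ± 44.2 CPM (SD, n = 12), and STR D1 neurons at 147 ± 24.8 CPM (SD, n = 12). The deep layer L6 CT (corticothalamic) neurons lay low among neurons at 92.9 ± 13.1 CPM (SD, n = 12), and L6b neurons at 90.7 ± 37.4 CPM (SD, n = 12).

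The lowest L2/3 IT value of any animal was 137 CPM and the highest L6 CT value 125 CPM, so these cortical types did not overlap. Whether the order between them is gradual was not tested, since sorting types by level keeps each step between neighbours small. The exact two-sided sign-flip test over animals, applied to types next to each other in the order of mean level, called 0 of 22 neighbouring pairs for Slc12a5 (smallest adjusted p = 0.172). That smallest value belonged to the step from neurons to glia, from L6b neurons to astrocytes, where L6b was higher in 8 of 8 animals by 4.71 ± 2.44 (SD) on the log2(CPM + 1) scale (exact p = 0.00781, the smallest that 8 animals can give), with 0 astrocyte UMIs in 5 of them. The neighbouring neuronal types therefore could not be ranked beyond their spread, and Pvalb interneurons (127 ± 14.7 CPM, SD, n = 12) and L6 IT neurons (127 ± 15.9 CPM, SD, n = 12) had nearly the same mean.

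In glia Slc12a5 was close to the limit of counting. With fractions summed and rounded, oligodendrocytes held 19 Slc12a5 UMIs in 1347 nuclei, a mean of 7.20 ± 7.59 CPM (SD, n = 12), and oligodendrocyte precursor cells (OPC) held 16 UMIs in 742 nuclei, 8.91 ± 5.43 CPM (SD, n = 12). Newly formed oligodendrocytes had 4 UMIs and astrocytes 3 UMIs in all. The Slc12a5 level of oligodendrocytes was 5.38% of that of excitatory neurons, while 5 pan-neuronal markers summed to 1.49% there (1.23% to 2.51% gene by gene). In OPC the same figures were 5.94% for Slc12a5 and 9.75% for the neuronal markers. Slc12a5 thus lay above the range of the markers in oligodendrocytes and below their sum in OPC, and the part of free neuronal RNA in these few UMIs was not tested.

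Slc12a2 followed a different order, led by cells of the oligodendrocyte lineage. Oligodendrocytes reached 1125 ± 122 CPM (SD, n = 12), the highest mean of the 23 types with enough nuclei. The values of the WT animals ran from 925 to 1210 CPM and those of the Het animals from 979 to 1346 CPM, so the genotypes overlapped almost entirely. Newly formed oligodendrocytes, an earlier stage, held 953 ± 117 CPM (SD, n = 9). OPC, the dividing precursors, held 116 ± 43.1 CPM (SD, n = 12). The highest OPC value (219 CPM) lay below the lowest value of newly formed oligodendrocytes (768 CPM), so within this lineage the level separated precursors from their progeny in every animal.

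VLMC/ABC cells, the leptomeningeal fibroblast and arachnoid barrier type, also carried much Slc12a2, with 846 ± 237 CPM (SD, n = 7 animals with at least 10 such nuclei). Types too rare to test were pooled over animals, with exact Poisson intervals for counting error only. Choroid plexus nuclei, the epithelium that secretes cerebrospinal fluid, gave 74 UMIs in 26 nuclei, or 1004 CPM (95% interval 789 to 1261). Microglia gave 150 UMIs in 51 nuclei, or 892 CPM (755 to 1047). Endothelial nuclei gave 11 UMIs in 14 nuclei (225 CPM, 112 to 403) and ependymal nuclei 2 UMIs in 35 nuclei (18.7 CPM, 2.27 to 67.6). In these 4 types Slc12a5 had at most 3 UMIs. In endothelial and ependymal nuclei it had 0, with exact Poisson upper limits of 75.4 and 34.5 CPM (61.4 and 28.1 CPM for a floor of 3 counts).

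Neurons carried Slc12a2 at a low and even level. Excitatory neurons held 58.3 ± 4.34 CPM (SD, n = 12), from 50 to 63.7 CPM. The mature types ran from a mean of 69.1 CPM in dentate gyrus granule cells (43.5 to 94.2 CPM over 12 animals) to 31.8 CPM in Pvalb interneurons (5.45 to 44.8 CPM over 12 animals). Pvalb interneurons, the fast-spiking basket and chandelier cells, thus had the lowest Slc12a2 mean of the 23 types, also without the upper limits on depth, without doublet removal, in WT animals alone, on whole-number entries and after thinning. Their lowest animal rests on 1 UMI. Pvalb interneurons were not separated from the next type, STR-PAL Chst9 neurons at 38.0 ± 19.4 CPM (SD, n = 12). The latter were higher in 7 of 12 animals (exact sign-flip test, adjusted p = 0.958). The 6 oligodendrocyte markers summed to 0.318% of their oligodendrocyte level in excitatory neurons (0.0528% to 0.698% gene by gene), while Slc12a2 stood at 5.17% of its oligodendrocyte level in these neurons.

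Olfactory and subventricular neuroblasts were the neuronal type with the most Slc12a2. Over the 9 animals with enough of these immature cells they held 189 ± 68.7 CPM (SD), between 76.5 and 280 CPM. Their Slc12a5 level was 92.3 ± 65.6 CPM (SD, n = 9), with 2 WT animals at 0 and the highest animal at 210 CPM. Only 194 Slc12a2 UMIs and 102 Slc12a5 UMIs lie behind these values, and neuroblasts made up at most 11.6% of an animal's inhibitory nuclei. In inhibitory neurons as a whole Slc12a2 was at 66.9 ± 19.8 CPM (SD, n = 12), from 32.2 to 109 CPM. Without the neuroblast nuclei it was 62.3 ± 16.1 CPM (SD, n = 12), from 29.7 to 93.7 CPM.

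Of the 22 neighbouring pairs in the order of Slc12a2, 1 passed the sign-flip test. OPC exceeded dentate gyrus granule cells in 11 of 12 animals, by 0.70 ± 0.56 (SD) on the log2(CPM + 1) scale (exact adjusted p = 0.0322). Oligodendrocytes exceeded newly formed oligodendrocytes in 8 of 9 animals by 0.28 ± 0.20 (SD), which did not pass (exact adjusted p = 0.129). Steps around the rarest types were compared in as few as 4 animals, where the exact test cannot go below p = 0.125. The call for OPC was lost without the upper limits on depth and after thinning. It was also lost in WT animals alone, where 6 animals allow too few sign flips for 1 pair to pass by itself.

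**Figure D1:**
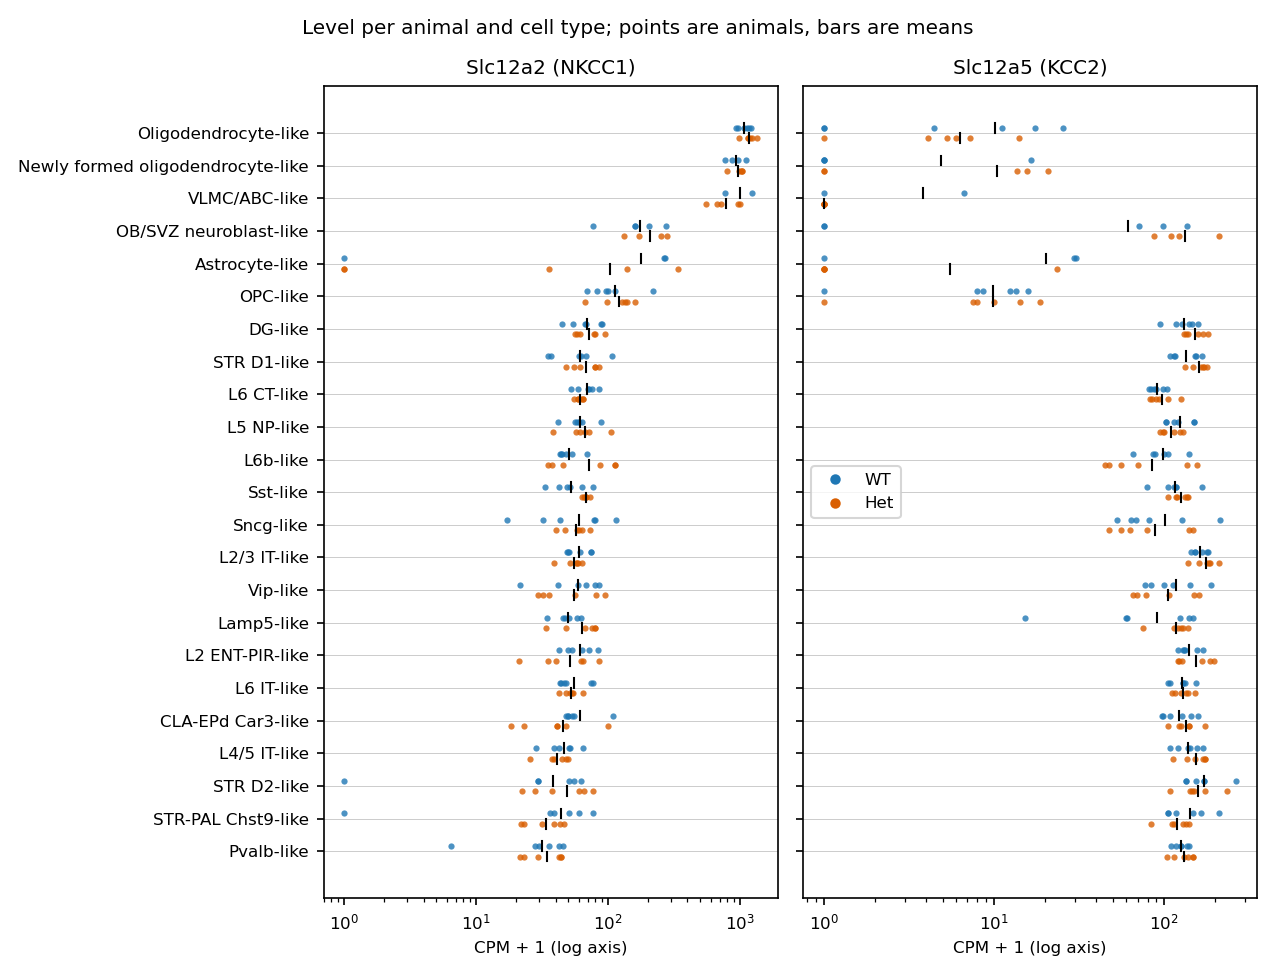
Level of Slc12a2 (left) and Slc12a5 (right) in each cell type, as CPM + 1 on a log axis, with one point per animal (WT blue, Het orange) and a bar at each genotype's mean. The Slc12a2 mean is highest in oligodendrocytes (1125 CPM) and lowest in Pvalb interneurons (31.8 CPM), which were not separated from the next type. Slc12a5 stands at 90.7 to 169 CPM in the mature neuronal types and at a mean of 8.91 CPM in OPC.

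The share of nuclei with at least 1 UMI broadly followed the levels when each nucleus was thinned to 1500 UMIs, which left out 45 of 33116 nuclei. For Slc12a2, newly formed oligodendrocytes and VLMC/ABC cells stood in the opposite order to their mean levels. Slc12a2 was seen in 79.4% of oligodendrocytes, 64.6% of newly formed oligodendrocytes, 69.4% of VLMC/ABC cells, 16.6% of OPC and 8.33% of excitatory neurons. Slc12a5 was seen in 18.2% of excitatory neurons, 17.4% of inhibitory neurons and, for comparison with a glial type, 0.596% of oligodendrocytes. Unthinned, where any value above 0 counted, fractions of a UMI included, the Slc12a5 shares were 35.1% in excitatory neurons at a median of 3245 UMIs per nucleus and 1.41% in oligodendrocytes at 2393 UMIs.

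Because oligodendrocytes are rich in Slc12a2, a minority of nuclei supplied much of the transcript. Oligodendrocytes and newly formed oligodendrocytes made up 1.54% to 8.45% of an animal's nuclei and gave 11.8% to 55.6% of its Slc12a2 UMIs. Over all nuclei the Slc12a2 level was 111 ± 22.3 CPM (SD, n = 12), from 75.4 to 147 CPM. With both oligodendrocyte types taken out it was 69.5 ± 6.42 CPM (SD, n = 12), from 59.5 to 79.4 CPM. This alternative was added after the values were seen. The share of such nuclei had a median of 4.43% in WT and 5.74% in Het animals, and nuclei were purified on a gradient meant to remove myelin, whose part in that share was not tested.

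The ratio of Slc12a2 to Slc12a5 UMIs, taken per animal as log2 with 0.5 added to each count, combines both genes. It was -1.20 in excitatory neurons and -0.97 in inhibitory neurons, so Slc12a5 UMIs were the more numerous in both. It was 7.46 in oligodendrocytes, 6.22 in newly formed oligodendrocytes, 6.19 in VLMC/ABC cells and 3.20 in OPC. In VLMC/ABC cells 7 of 7 animals had fewer than 0.5 Slc12a5 UMIs, so the size of that ratio depends on the constant added. The neuroblasts, at 1.25, were the neuronal type with a mean above 0, and their animals ranged from 0.40 to 3.17. WT male 3 (2.32) and WT female 1 (3.17) had 0 Slc12a5 UMIs in neuroblasts, so their ratios depend on the constant added. Pvalb interneurons lay lowest at -2.05 and L6 CT neurons highest among the mature types at -0.54. STR D2 neurons (-2.01) and L6b neurons (-0.57) lay next to them. The SDs over animals, 0.61 in Pvalb and 0.28 in L6 CT, exceed these gaps, and the ranks were not tested. Gene length changes the zero point and not the order, since the same shift applies to every class. Per kilobase of coding-transcript exons (6.52 for Slc12a2, 6.21 for Slc12a5) each value falls by 0.07, and per kilobase of the whole gene (68.1 and 38.9) it falls by 0.81, leaving neuroblasts at means of 1.18 and 0.44. The neuroblast ratios of 0.40, 0.49, 0.53 and 0.68 fall below 0 with the shift of 0.81.

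The oligodendrocyte lineage was set apart from excitatory neurons by the exact sign-flip test. The ratio of oligodendrocytes was above that of excitatory neurons by 8.67 ± 1.47 (SD) in 12 of 12 animals (exact adjusted p = 0.00110). OPC were above by 4.40 ± 1.07 (SD) in 12 of 12 animals (exact adjusted p = 0.00110) and newly formed oligodendrocytes by 7.46 ± 0.88 (SD) in 9 of 9 (exact adjusted p = 0.00586). The comparisons of inhibitory neurons with the same 3 types passed too, with differences of 4.16 to 8.43. For astrocytes the ratio is not read as a test. Het male 2 and Het female 2 had 0 astrocyte UMIs of both genes, so the constant alone set their ratio, and WT female 1 had 0 of Slc12a2. These glial ratios rest on 0 to 3 Slc12a5 UMIs per animal, so their size depends on the constant added. Inhibitory and excitatory neurons differed by 0.23 ± 0.43 (SD), higher in inhibitory neurons in 7 of 12 animals, which did not pass (exact adjusted p = 0.0830).

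**Figure D2:**
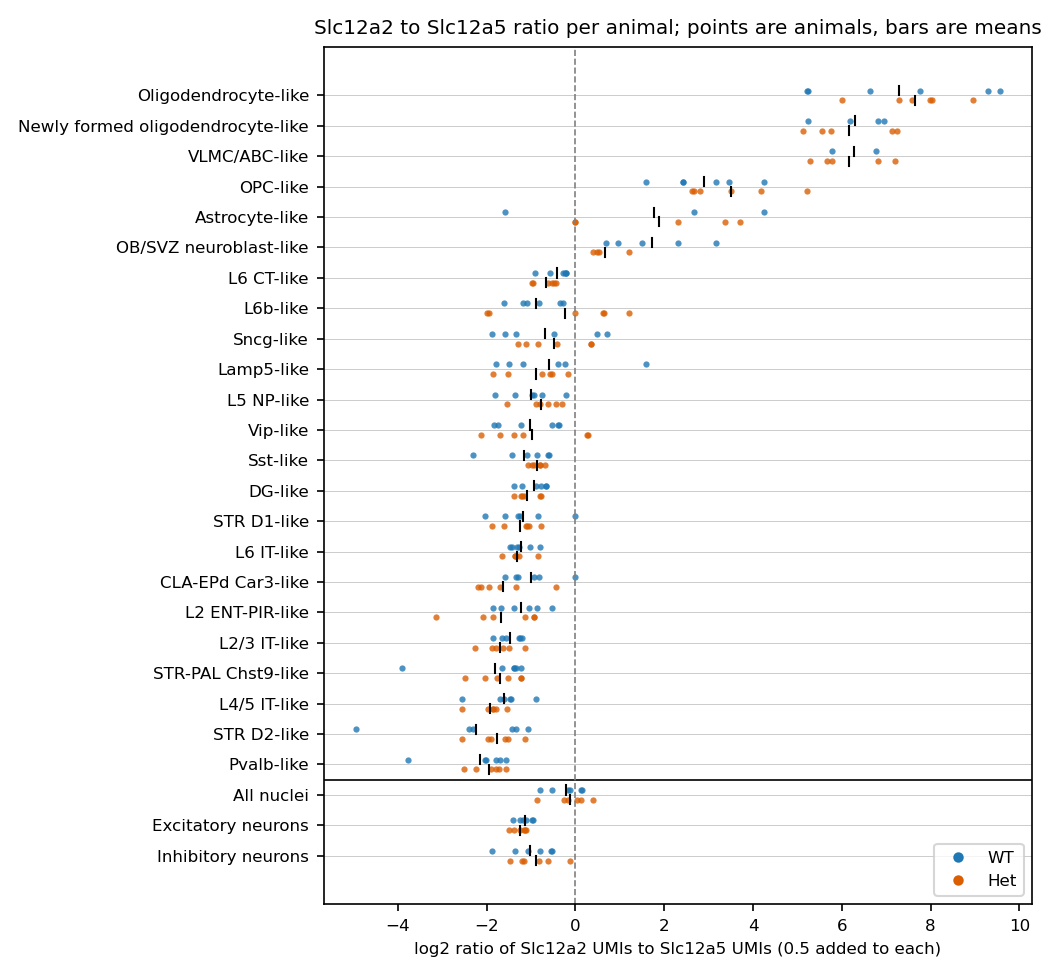
Slc12a2 to Slc12a5 ratio as log2 of UMIs with 0.5 added to each, per animal (WT blue, Het orange) with a bar at each genotype's mean, for the named types above the line and the pooled classes below it. The glial and leptomeningeal types sit at the right (mean 7.46 in oligodendrocytes), neuroblasts at 1.25, and the mature neuronal types between -2.05 and -0.54.

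The profiles over the 23 types ran against each other, with a Pearson correlation of -0.726 between Slc12a2 and Slc12a5 on mean log2(CPM + 1). This is a description over types from the same animals and libraries. It spans neuronal and non-neuronal types, which differ widely in both genes, and no correlation within neurons alone is given. Among 6746 genes reaching 50 CPM in at least 1 type, the profiles most like that of Slc12a5 were those of Ttll11 (r = 0.978), Unc13a (0.976), Pacsin1 (0.975), Grin2b (0.970) and Gm1043 (0.970). Unc13a encodes a synaptic vesicle priming factor and Grin2b an NMDA receptor subunit. Pacsin1, an endocytic adaptor known as a KCC2 partner, was also among the listed genes. The profiles most like that of Slc12a2 were those of Itch (0.941), Fto (0.938), Arpc1b (0.901), Picalm (0.891) and Atl3 (0.878). Itch is a ubiquitin ligase and Picalm a clathrin assembly protein, and both had their highest mean in oligodendrocytes (502 and 576 CPM).

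Whether Myt1l heterozygosity moves the chloride transporters was asked class by class, with edgeR's quasi-likelihood test on the summed counts and Benjamini-Hochberg adjustment over all genes tested in that class. A gene was called at an adjusted p under 0.05 and a log2 fold change beyond 0.2 in either direction. Neither transporter was called in any class. Slc12a2 passed the filter on low counts in 15 of 22 types and Slc12a5 in 16 of 22. The smallest adjusted p in edgeR was 0.527 for Slc12a2 and 0.832 for Slc12a5, 0 types had an unadjusted p under 0.05 for either gene, and DESeq2 also called 0. The background of called genes was itself low. Percent called was 0.129 in excitatory and 0.316 in inhibitory neurons, 0.792 in L6 CT, 0.248 in L4/5 IT, 0.146 in L5 NP, 0.111 in Sncg, 0.0880 in L6 IT, 0.0636 in dentate gyrus, 0.0625 in Vip, 0.0420 in L2/3 IT, 0.0413 in Lamp5 and 0.0261 in Pvalb. It was 0 in the other classes and over all nuclei, where 980 of 16656 genes had an unadjusted p under 0.05 and DESeq2 called 30 of 15567.

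In excitatory neurons Slc12a5 had a median of 128 CPM in WT (122 to 152) and 131 CPM in Het (130 to 159), and the animals overlapped. The log2 fold change (Het minus WT) was 0.05 ± 0.06 (SE), with an approximate 95% interval of -0.06 to 0.17 (edgeR adjusted p = 0.897). For Slc12a2 in the same neurons the medians were 62.0 CPM in WT (50 to 63.7) and 57.4 CPM in Het (54.4 to 60.7). WT female 1 and WT female 2, at 50 and 54.0 CPM, lay below every Het animal. The other WT animals held 60.7 to 63.7 CPM, against a highest Het value of 60.7 CPM. The comparison gave a log2 fold change of -0.07 ± 0.07 (SE) with an interval of -0.21 to 0.06 (edgeR adjusted p = 0.865). In inhibitory neurons the log2 fold changes were 0.07 ± 0.08 (SE) for Slc12a5 and 0.16 ± 0.24 (SE) for Slc12a2 (edgeR adjusted p = 0.967 and 0.986), the second with an interval of -0.31 to 0.62 and a value of -0.01 without Het male 3.

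In oligodendrocytes, the named type with the most Slc12a2 UMIs (4073), Het animals had a median of 1170 CPM and WT animals 1095 CPM. The log2 fold change was 0.09 ± 0.10 (SE), interval -0.10 to 0.29 (edgeR adjusted p = 0.999). OPC gave 0.20 ± 0.24 (SE) and newly formed oligodendrocytes 0.04 ± 0.18 (SE). Across types the Slc12a2 values ran from -0.83 ± 1.2 (SE) in astrocytes, where 41 UMIs were counted, to 0.37 ± 0.21 (SE) in Sst interneurons, with 8 positive and 7 negative. For Slc12a5 they ran from -0.21 ± 0.23 (SE) in STR-PAL Chst9 neurons to 0.35 ± 0.26 (SE) in Lamp5 interneurons, with 11 positive and 5 negative.

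L6 CT neurons, the type with the highest percentage of called genes, gave the smallest Slc12a2 p. WT animals held 51.6 to 84.2 CPM (median 70.0) and Het animals 54.3 to 63.9 CPM (median 59.9), so the Het values sat inside the WT range. The log2 fold change was -0.22 ± 0.11 (SE; unadjusted p = 0.0544, edgeR adjusted p = 0.527). For Slc12a5 the WT animals held 80.5 to 103 CPM and the Het animals 81.5 to 125 CPM, a log2 fold change of 0.10 ± 0.10 (SE; edgeR adjusted p = 0.832).

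**Figure D3:**
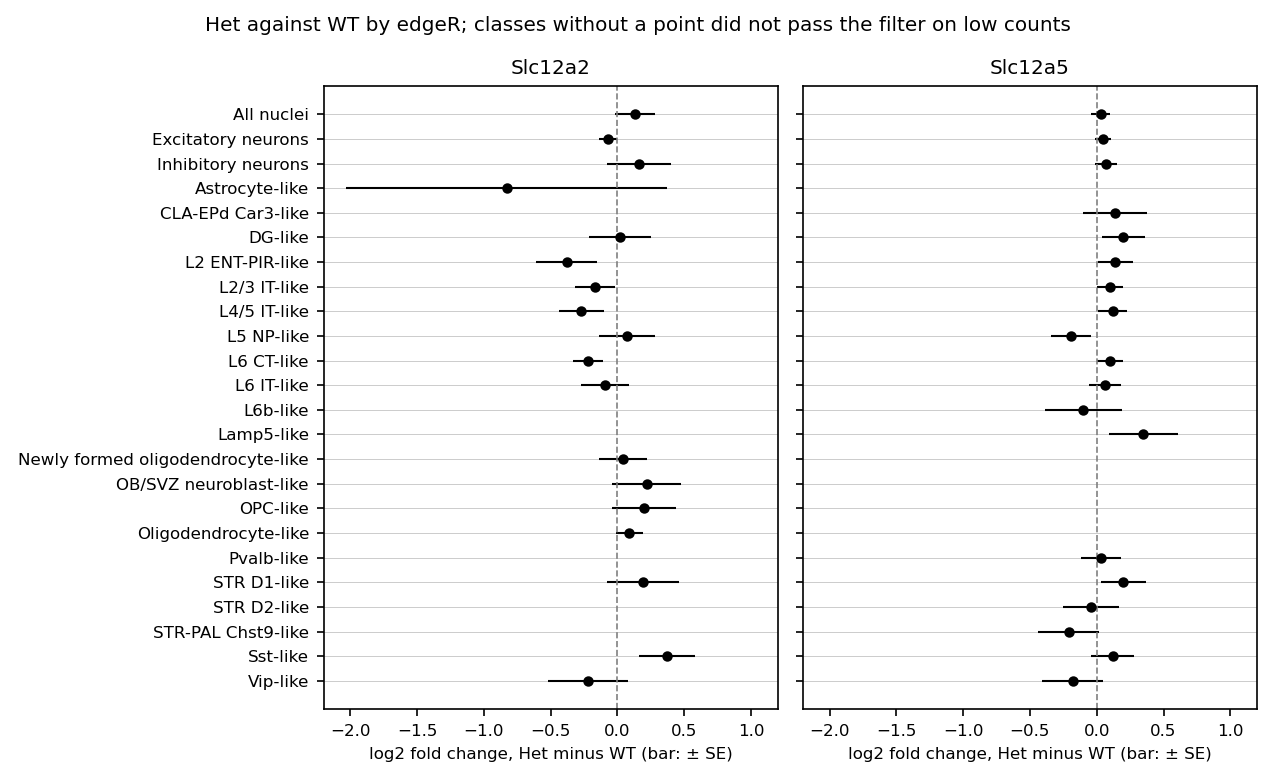
Log2 fold change of Slc12a2 (left) and Slc12a5 (right), Het minus WT, by edgeR with bars of ± SE, for each class where the gene passed the filter on low counts. No class reached an adjusted p under 0.05, and the extremes are -0.83 (astrocytes, SE 1.2) and 0.37 (Sst) for Slc12a2 and -0.21 and 0.35 for Slc12a5.

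The ratio of the transporters was likewise not separated by genotype in any of 25 classes. An exact two-sided permutation test over animals gave adjusted p of 0.855 or more throughout, and 0 classes had an unadjusted p under 0.05. In excitatory neurons the WT animals had a mean log2 ratio of -1.15 ± 0.17 (SD) and the Het animals one of -1.26 ± 0.15 (SD), n = 6 each, a difference of -0.11 (exact p = 0.281). In L6 CT neurons the means were -0.41 ± 0.28 (SD) for WT and -0.67 ± 0.24 (SD) for Het, n = 6 each, a difference of -0.26 (exact p = 0.121). There, and in L4/5 IT neurons (difference -0.32, exact p = 0.258), 0 of 6 Het values exceeded the WT median. In L5 NP neurons and in oligodendrocytes 5 of 6 Het values did. The smallest p was in neuroblasts, at 1.72 ± 1.02 (SD, n = 5) for WT and 0.65 ± 0.37 (SD, n = 4) for Het, where 0 of 4 Het values exceeded the median of WT (exact p = 0.0952, adjusted p = 0.855). The highest WT values there, WT male 3 (2.32) and WT female 1 (3.17), had 0 Slc12a5 UMIs and depend on the constant added. The other WT values were 0.96, 0.68 and 1.49, and the Het values ran from 0.4 to 1.2. In oligodendrocytes the means were 7.28 ± 1.91 (SD, n = 6) and 7.64 ± 0.98 (SD, n = 6), a difference of 0.36 (exact p = 0.675).

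Sex was examined through the difference of the genotype effect between females and males. No interaction passed adjustment for either transporter. The background was 0% called in most classes and 0.0280% in L2/3 IT, 0.0243% in Sst, 0.0367% in STR D1 and 0.0399% in OPC. The smallest p values were both for Slc12a5 in interneurons. In Lamp5 cells, the neurogliaform type, WT males held 123 to 147 CPM and Het males 74.5 to 125 CPM, while WT females held 14.3, 58.9 and 60 CPM and Het females 120 to 138 CPM. The difference of log2 fold changes was 1.66 ± 0.49 (SE; edgeR adjusted p = 0.903), on 188 Slc12a5 UMIs in all 12 animals. In Vip cells it was 1.34 ± 0.41 (SE; edgeR adjusted p = 0.972), with WT males at 98.5 to 187 CPM, Het males at 64.7 to 106 CPM, WT females at 76.8 to 112 CPM and Het females at 68.1 to 159 CPM. For Slc12a2 the smallest was in L4/5 IT neurons, 0.89 ± 0.34 (SE; edgeR adjusted p = 0.854).

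The transporters were then set beside 57 genes of chloride handling in 7 lists, of which 53 could be tested over all nuclei. In 476 tests of a listed gene in a type, 0 were called higher and 2 lower in Het, and 30 had an unadjusted p under 0.05. The share with an unadjusted p under 0.05 was thus 6.30%, near the 6.66% of all 75751 tests of a gene in these 22 types. The share called was 0.420% of listed and 0.139% of all tests, the first resting on those 2 calls. The lists were written with earlier results of these data known. The called gene described here is Grik2, a kainate receptor subunit known to bind KCC2, in L5 NP (near-projecting) neurons. The median log2 fold change of the tested listed genes was 0.07 in L5 NP neurons, against about 0 for all genes tested there.

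In L5 NP neurons Grik2 was at 1025, 870, 895, 985, 1044 and 1249 CPM in the WT animals and at 764, 827, 740, 789, 837 and 662 CPM in the Het animals, with no overlap. The log2 fold change was -0.44 ± 0.09 (SE; edgeR adjusted p = 0.0281), and with DESeq2 -0.44 ± 0.10 (SE; adjusted p = 0.0140, background 0.168%). The edgeR call was lost under several settings, among them without the filter on low counts (adjusted p = 0.0586), without the upper limits (-0.25, adjusted p = 0.571) and when WT male 1, WT female 3, Het male 1, Het male 3, Het female 1 or Het female 3 was left out (adjusted p of 0.0564 to 0.223). In L6 IT neurons Grik2 ran from 984 to 1090 CPM in WT and from 828 to 925 CPM in Het, a log2 fold change of -0.23 ± 0.07 (SE; edgeR adjusted p = 0.285) that only DESeq2 called (adjusted p = 0.0462, background 0.162%). In L6 CT neurons it was -0.17 ± 0.06 (SE; edgeR adjusted p = 0.246), and DESeq2 did not call it either (adjusted p = 0.0593, background 3.42%). Of 22 types, 20 had a negative value for Grik2. Neto2, Epb41l1, Ckb and Pacsin1, the other listed KCC2 partners, were called in 0 types. Among all types Grik2 was highest in newly formed oligodendrocytes, at 5239 ± 697 CPM (SD, n = 9).

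**Figure D4:**
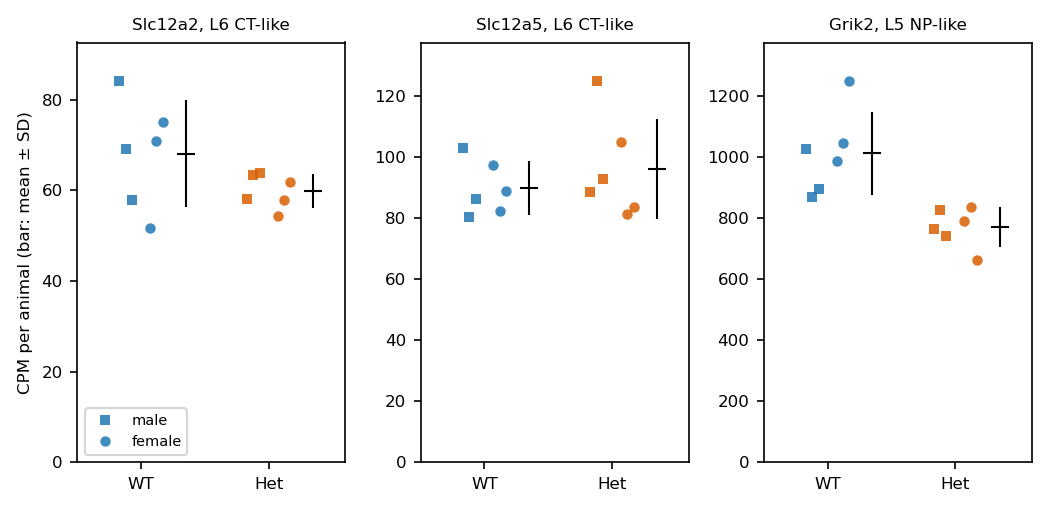
CPM per animal in WT (blue) and Het (orange), males as squares and females as circles, with mean ± SD beside them, for Slc12a2 and Slc12a5 in L6 CT neurons and Grik2 in L5 NP neurons. The genotypes overlap for Slc12a2 and Slc12a5, while for Grik2 (870 to 1249 against 662 to 837 CPM) they do not.

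Other members of the SLC12 family had their own places. Slc12a7, which encodes KCC4, was at 351 ± 90.0 CPM in VLMC/ABC cells (SD, n = 7) and at 1.01 ± 0.536 CPM in excitatory neurons (SD, n = 12). Slc12a4, the widely expressed KCC1, was highest in astrocytes at 61.8 ± 35.4 CPM (SD, n = 8) from 21 UMIs. Among the neuronal types with 12 animals, L6 CT neurons held the most Slc12a4, at 9.27 ± 2.03 CPM (SD, n = 12). Slc12a8 was highest in STR-PAL Chst9 neurons at 39.5 ± 33.0 CPM (SD, n = 12) from 41 UMIs, and Slc12a9 in oligodendrocytes at 34.9 ± 11.1 CPM (SD, n = 12). Slc12a1 (the kidney cotransporter NKCC2) and Slc12a3 (the thiazide-sensitive NCC) were at 1.37 ± 0.527 and 1.32 ± 0.375 CPM over all nuclei (SD, n = 12). Slc12a3 had the lowest level of the family over all nuclei, with a log2 fold change of -0.20 ± 0.24 (SE; edgeR adjusted p = 0.978).

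**Figure D5:**
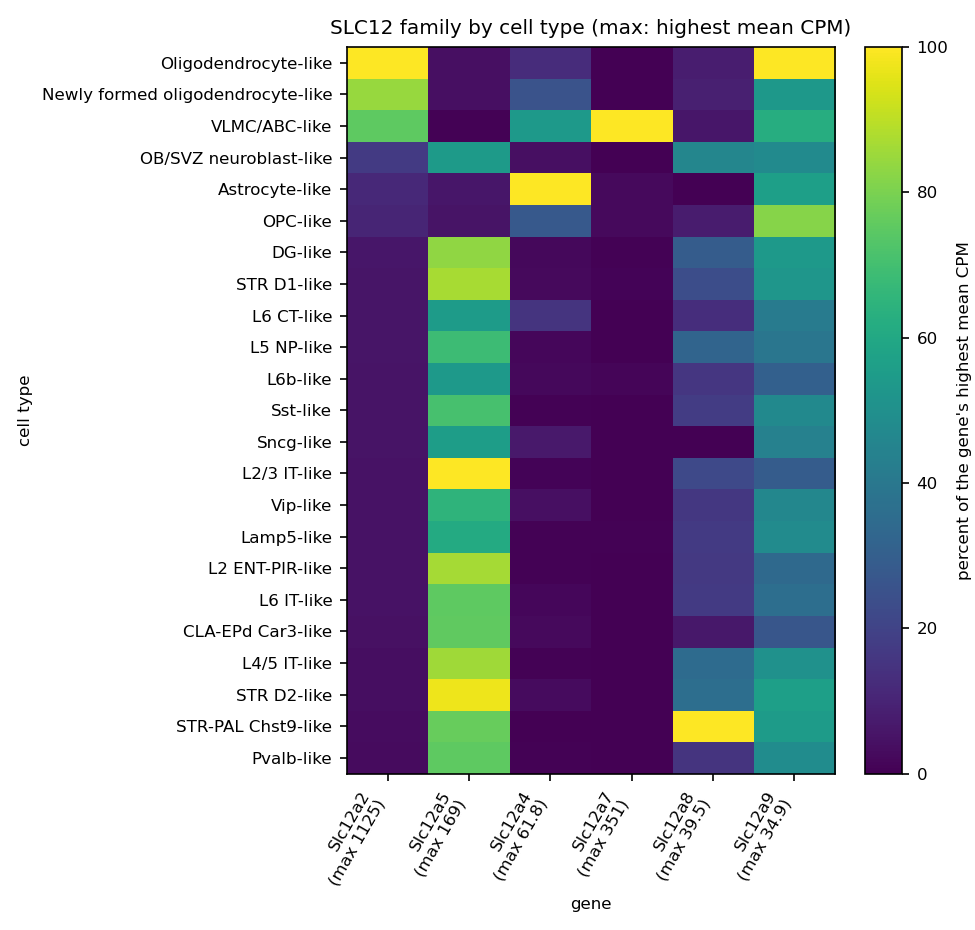
Mean CPM of 6 SLC12 genes in each cell type, each gene scaled to its own highest type (100%), with that highest mean printed under the gene. Slc12a2 peaks in oligodendrocytes, Slc12a5 in L2/3 IT neurons, Slc12a4 in astrocytes and Slc12a7 in VLMC/ABC cells (351 CPM).

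The kinases of the WNK-SPAK pathway phosphorylate both transporters and so raise NKCC1 and lower KCC2 activity. Wnk1, the most widely expressed of the WNK kinases, was at 1703 ± 275 CPM in oligodendrocytes (SD, n = 12) and 2192 ± 518 CPM in VLMC/ABC cells (SD, n = 7), against 224 ± 6.37 CPM in excitatory neurons (SD, n = 12). Stk39, which encodes SPAK, was at 584 ± 53.0 CPM in oligodendrocytes (SD, n = 12), 2197 ± 388 CPM in VLMC/ABC cells (SD, n = 7) and 181 ± 12.1 CPM in excitatory neurons (SD, n = 12). Both kinases, like Slc12a2, thus had higher means in oligodendrocytes and VLMC/ABC cells than in excitatory neurons. Of 160 gene-by-type tests in this list 0 were called, with Nedd4l highest over all nuclei (434 ± 17.2 CPM, SD, n = 12, log2 fold change 0.05 ± 0.04, SE) and Cab39l lowest among those tested (33.5 ± 3.91 CPM, log2 fold change -0.05 ± 0.08, SE).

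The listed regulators of Slc12a5 were weakly counted. Rest, the repressor of neuronal genes, was at 1.33 ± 0.761 CPM in excitatory neurons (SD, n = 12), 15.3 ± 8.07 CPM in oligodendrocytes (SD, n = 12) and 21.6 ± 14.8 CPM in OPC (SD, n = 12). Egr4 was at 4.53 ± 1.91 CPM in excitatory neurons (SD, n = 12), with 0 UMIs in OPC. Usf2 was even, at 25.1 ± 2.22 CPM in excitatory neurons and 27.5 ± 12.6 CPM in oligodendrocytes (SD, n = 12 each), and Usf1 lay at 4.52 CPM in excitatory neurons and 14.1 CPM in oligodendrocytes (means, n = 12 each). Only 5 gene-by-type tests were possible in this list and 0 were called. Over all nuclei Usf2 was the highest (log2 fold change -0.03 ± 0.08, SE) and Rest the lowest (0.05 ± 0.35, SE).

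In the remaining lists 0 genes were called in any type. Among chloride-bicarbonate exchangers (41 tests) Slc4a10 led with 629 ± 32.9 CPM over all nuclei (SD, n = 12, log2 fold change -0.09 ± 0.05, SE) and Slc26a11 was lowest of those tested (4.13 ± 0.763 CPM, SD). In VLMC/ABC cells Slc4a10 reached 9035 ± 1647 CPM and the sulfate transporter Slc26a2 916 ± 230 CPM (SD, n = 7). Among chloride channels (104 tests) the endosomal exchanger Clcn3 led with 146 ± 6.31 CPM (SD, n = 12) and Ano1 was lowest (2.48 ± 0.632 CPM, SD). Ttyh1 was at 656 ± 185 CPM in astrocytes (SD, n = 8) and 73.7 ± 6.69 CPM in excitatory neurons (SD, n = 12). For the sodium-potassium ATPase (63 tests), which builds the gradients both transporters use, Atp1b1 led with 280 ± 43.1 CPM (SD, n = 12) and Atp1b2 was lowest (9.51 ± 2.75 CPM, SD).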

How the data were processed

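Nuclei were barcoded with the Scale Biosciences kit, and reads were processed by the authors with the ScaleRna workflow. The deposited matrices hold expected counts, that is, UMIs that the authors' pipeline divided among genes (92.6% of entries are whole), without normalization. The submitters' processing notes name mm10, Seurat 4.3.0 and DESeq2 1.38.3. The members were chosen, and the gene lists written, with earlier results of these data known.

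The study's limits were applied to barcodes (800 to 6000 UMIs and 300 to 3000 genes, with up to 1% of UMIs mitochondrial and log genes divided by log UMIs not under 0.9), and the 5% with the highest doublet score were removed. Clustering (scanpy 1.11.5) left out the transporters, the listed genes, Myt1l and genes of the X, Y and mitochondrial chromosomes. Clusters were named from fixed markers. The naming criteria were adjusted after the clusters were seen and before the transporters' values were examined, and 8445 nuclei stayed unnamed. The tdTomato row was kept out of all totals.

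Counts were summed per animal and class (at least 10 nuclei, at least 3 animals per genotype), rounded, and fitted with edgeR 4.0.16 (TMM, filterByExpr, robust quasi-likelihood, genotype only). The SE is the absolute log2 fold change divided by the square root of F. DESeq2 1.42.0 was an alternative. The fit was checked on simulated counts. Levels of classes were compared by exact sign-flip tests over animals and the ratio between genotypes by exact permutation, all two-sided and Benjamini-Hochberg adjusted over the pairs or classes. The exact Poisson intervals and floors (3 counts) cover counting error only, while the approximate intervals of log2 fold changes follow from the SE of the fit. Named genes were the 2 transporters, listed genes called in any class, the highest and lowest tested gene of each list and the 5 most similar profiles. Other listed genes were named after their values were seen, for their known role. The sign of Slc12a2 in newly formed oligodendrocytes, and other signs near 0, depend on the processing as given further on. Results for some listed genes are not reported here.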

Additional observations from a re-analysis of the deposited data

Results flagged for a closer look

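Levels and ratios were screened for an animal far from the others of its genotype by Dixon's criterion, which flags about 5% of groups by chance. Of 149 groups, 14 were flagged, and most rest on few UMIs. In excitatory neurons WT male 2 had 152 CPM of Slc12a5 against 122 to 133 CPM in the other WT animals. In STR D2 neurons WT male 1 had 265 CPM of Slc12a5 against 133 to 171 CPM, and a log2 ratio of -4.95 against -2.40 to -1.07. In Lamp5 cells Het male 1 had 74.5 CPM of Slc12a5 against 114 to 138 CPM. In OPC WT male 1 had 219 CPM of Slc12a2 against 68.1 to 112 CPM. In newly formed oligodendrocytes Het female 1 had 796 CPM of Slc12a2 against 984 to 1031 CPM.

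In CLA-EPd Car3 neurons WT female 1 had 108 CPM of Slc12a2 against 47.3 to 53.8 CPM, and Het male 1 had 99.2 CPM against 17.3 to 47.4 CPM. In L6b neurons WT female 3 had 68.2 CPM of Slc12a2 against 42.3 to 51.9 CPM. WT female 1 had the lowest log2 ratio in Pvalb interneurons (-3.77 against -2.03 to -1.57) and in STR-PAL Chst9 neurons (-3.91 against -1.66 to -1.22). In neuroblasts Het male 3 had a log2 ratio of 1.2 against 0.40 to 0.53. A single animal had any Slc12a5 in astrocytes of Het animals (Het female 3, 22.5 CPM) and in newly formed oligodendrocytes of WT animals (WT male 3, 15.5 CPM).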

How the results depend on the processing

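Neither transporter was called between genotypes in any class under DESeq2, RLE size factors, no filter on low counts, sex as a covariate, a replicate block, other limits on nuclei or any animal left out, and no ratio was either. Signs near 0 turned. Slc12a2 in newly formed oligodendrocytes went from 0.04 to -0.02 with the replicate block, -0.02 without the upper limits, -0.01 without doublet removal and -0.03 (without WT female 1) to 0.14 with one animal left out. With one animal left out, Slc12a2 in inhibitory neurons ran from -0.01 (without Het male 3) to 0.26 and Slc12a5 over all nuclei from -0.02 (without Het male 2) to 0.07. The Het minus WT log2 ratio turned to -0.01 over all nuclei and -0.01 in inhibitory neurons without the upper limits, and to -0.13 in oligodendrocytes without doublet removal. With one animal left out it ran from -0.01 to 0.25, from -0.03 to 0.25 and from -0.05 to 0.82 in these classes, negative without WT male 1 or Het male 1 over all nuclei, WT female 1 or Het male 3 in inhibitory neurons, and WT male 1 or WT female 3 in oligodendrocytes. The cause was not tested.

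The ratio difference of inhibitory minus excitatory neurons passed without the upper limits (0.30). In WT animals alone (6, but 4 for newly formed oligodendrocytes and 3 for astrocytes) no glial difference passed. So few animals allow so few sign flips that no pair could have passed the adjustment, whatever its values. Against excitatory neurons the differences in WT animals were 4.04 (OPC), 7.49 (newly formed oligodendrocytes) and 8.43 (oligodendrocytes), and against inhibitory neurons 3.92, 7.50 and 8.32. For astrocytes, not read as a test, the values were 2.98 and 2.93. Neighbouring types that differed in Slc12a2 numbered 0 without the upper limits, 0 in WT animals alone, 0 after thinning and 2 on whole-number entries. For Slc12a5 the number was 1 without the upper limits.

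Replicate numbers are shared between genotypes, but same-numbered animals did not deviate together (correlations from -0.29 to 0.20), so the paired fit is given only here. It ended the Grik2 call in L5 NP neurons (-0.43, adjusted p = 0.0977). Depth limits the rare types: Slc12a5 in glia and Slc12a2 in astrocytes rest on 41 UMIs or fewer.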
